A study of Mus musculus with 4 samples.

Results

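Genes that mark the stroma of the bone marrow and its adipocytes, cells that cartilage itself does not hold, were measured in libraries of knee cartilage. They were 10 of the 24421 rows of a gene count table, chosen by name, with 4 genes of niche stroma (Cxcl12, Lepr, Kitl, Ebf3) and 6 genes of adipocytes (Adipoq, Plin1, Cidec, Lpl, Fabp4, Pparg). All 10 were found, and all 10 passed the low-count filter, which left 13103 genes for testing. RNA came from the superficial zone of the articular cartilage on the medial femoral condyle of C57BL/6J mice, 8 weeks after surgery. From each of 2 mice, M04 and M05, came 1 sham knee and 1 knee in which the medial meniscus had been destabilized (DMM), an operation that makes the joint unstable and leads to osteoarthritis. Each knee gave 1 library, so there were 2 DMM and 2 sham libraries. The sample labels call both animals wild type, while the series' design text names M05 a knockout without naming a gene. A difference between the mice is therefore reported as one between 2 animals. Nothing in the labels gives further replicates, so p-values refer to these 4 libraries alone. For the 10 genes, the spread behind them came wholly or almost wholly from the trend across genes.

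The stroma of the marrow contains reticular cells that surround blood vessels and make CXCL12, a chemokine that holds blood stem and progenitor cells in place through the receptor CXCR4, and stem cell factor (Kitl), the ligand of KIT. In the mouse these cells carry the leptin receptor (Lepr) and depend on transcription factors of the early B-cell factor family, Ebf3 among them. They can also give rise to marrow adipocytes. PPARG is the nuclear receptor that drives adipocyte differentiation, perilipin 1 (Plin1) and CIDEC coat the lipid droplet and let it grow, lipoprotein lipase (Lpl) and FABP4 take in and carry fatty acids, and adiponectin (Adipoq) is a hormone that adipocytes secrete. Not all of these genes are particular to one cell: Fabp4 and Kitl are also made by endothelium, Lpl by muscle, and Lpl, Fabp4 and Pparg by macrophages.

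Promoters are shown for the gene with the highest level (Cxcl12), for the adipocyte hormone (Adipoq) and for the lipid droplet genes (Plin1 and Cidec). They are RefSeq sequences on build GRCm38.p6, from 250 bases before to 50 bases after the start of transcription, on the strand of the gene. The files used another build, GRCm39, so these positions belong to the promoter table alone. The Cxcl12 promoter is chr6:117168285-117168584, plus strand, that of Adipoq chr16:23146286-23146585, plus strand, and that of Plin1 chr7:79732727-79733026, minus strand. Cidec has a pair of starts, at chr6:113435711-113436010 and chr6:113434715-113435014, both on the minus strand. Capitals mark matches to the motifs described after the sequences.
Cxcl12: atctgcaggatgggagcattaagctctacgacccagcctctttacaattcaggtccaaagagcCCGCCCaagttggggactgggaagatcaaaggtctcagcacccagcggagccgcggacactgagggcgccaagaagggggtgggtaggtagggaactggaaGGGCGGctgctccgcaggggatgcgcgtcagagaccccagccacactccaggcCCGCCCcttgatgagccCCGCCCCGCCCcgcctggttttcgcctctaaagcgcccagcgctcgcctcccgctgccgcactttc
Adipoq: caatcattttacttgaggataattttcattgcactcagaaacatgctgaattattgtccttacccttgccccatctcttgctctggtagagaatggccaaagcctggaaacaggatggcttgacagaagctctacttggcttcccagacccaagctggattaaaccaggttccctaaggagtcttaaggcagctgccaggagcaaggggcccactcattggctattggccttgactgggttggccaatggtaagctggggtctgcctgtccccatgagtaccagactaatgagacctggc
Plin1: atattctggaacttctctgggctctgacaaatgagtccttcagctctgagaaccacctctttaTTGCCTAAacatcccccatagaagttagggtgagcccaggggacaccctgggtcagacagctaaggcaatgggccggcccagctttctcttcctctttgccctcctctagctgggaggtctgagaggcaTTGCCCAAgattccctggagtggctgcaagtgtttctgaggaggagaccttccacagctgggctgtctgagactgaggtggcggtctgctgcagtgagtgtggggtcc
Cidec, upstream start: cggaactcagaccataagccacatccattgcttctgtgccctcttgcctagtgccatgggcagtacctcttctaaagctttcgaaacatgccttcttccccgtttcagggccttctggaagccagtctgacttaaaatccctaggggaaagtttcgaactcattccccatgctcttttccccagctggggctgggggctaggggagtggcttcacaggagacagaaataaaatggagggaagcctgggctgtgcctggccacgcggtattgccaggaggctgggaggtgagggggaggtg
Cidec, downstream start: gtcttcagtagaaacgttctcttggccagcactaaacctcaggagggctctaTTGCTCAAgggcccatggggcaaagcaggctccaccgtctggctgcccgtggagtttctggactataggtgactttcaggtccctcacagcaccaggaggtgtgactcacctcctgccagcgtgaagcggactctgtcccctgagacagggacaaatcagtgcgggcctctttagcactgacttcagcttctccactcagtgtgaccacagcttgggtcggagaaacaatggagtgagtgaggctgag

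In total 8 of the 10 members matched the promoter table, with 12 starts. The motifs named here were searched on both strands, and overlaps between matches were allowed. The GC box (GGGCGG) was found in 6 of the 12 promoters, against 35.7% of 32851 promoters of the table, and the Cxcl12 promoter holds 5 matches, of which 1 overlaps its neighbour. The C/EBP motif (TTGCNNAA) was found in 4 of the 12 and in 10.8% of the table. Plin1 holds 2 matches and the downstream start of Cidec 1, while the upstream start of Cidec and the Adipoq promoter hold none. The TATA box (TATAAA) was found for Kitl and for 1 start of Pparg, and in 13.6% of the table. The direct repeat bound by PPARG (AGGTCANAGGTCA, 0.0396% of the table) and the EBF motif (TCCCNNGGGA, 0.904%) have no exact match in the 12 windows.

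Total counts were 12712425 to 19336628 per library. Chondrocyte markers were present in every library, so the labelled tissue was there, but erythroid markers (89656 to 150808 CPM, counts scaled to library size) far exceeded the 6 chondrocyte markers. Those summed to 4452 CPM (sham) and 5181 CPM (DMM) in M04 and 1080 CPM (sham) and 3846 CPM (DMM) in M05. The 8 osteoblast and osteocyte markers summed to 6486 CPM (sham) and 7197 CPM (DMM) in M04 and 5275 CPM (sham) and 6071 CPM (DMM) in M05. That was above the chondrocyte sum in every library, with 3473 to 5340 CPM of it from Col1a1. The libraries thus held transcripts of bone and of marrow or blood beside cartilage. The part of bone in the members' values was not tested. In bulk tissue, fewer cells of a type and less RNA per cell cannot be told apart.

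Cxcl12 stood among the most abundant transcripts. On the FPKM scale, which is per transcript length, its level was 295 FPKM (sham) and 288 FPKM (DMM) in M04 and 292 FPKM (sham) and 267 FPKM (DMM) in M05. This was above 98.6% to 98.9% of all rows in each library. Fabp4 came next with 119.7 to 172 FPKM, then Adipoq with 28.0 to 36.6 and Lpl with 19.1 to 23.0 FPKM. The ranges of these 4 did not overlap. Pparg followed with 5.70 to 7.78 FPKM and Lepr with 2.16 to 3.47 FPKM. Cidec (1.41 to 5.75), Kitl (0.901 to 1.91), Ebf3 (0.585 to 1.10) and Plin1 (0.200 to 1.21 FPKM) overlapped, and their order changed between libraries. In the M04 DMM library, Cidec reached the level of Pparg. Of all counts of the 10 members in a library, Cxcl12 held 73.1% to 76.7%, and the members together held 0.0757% to 0.104% of the library.

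**Figure D1:**
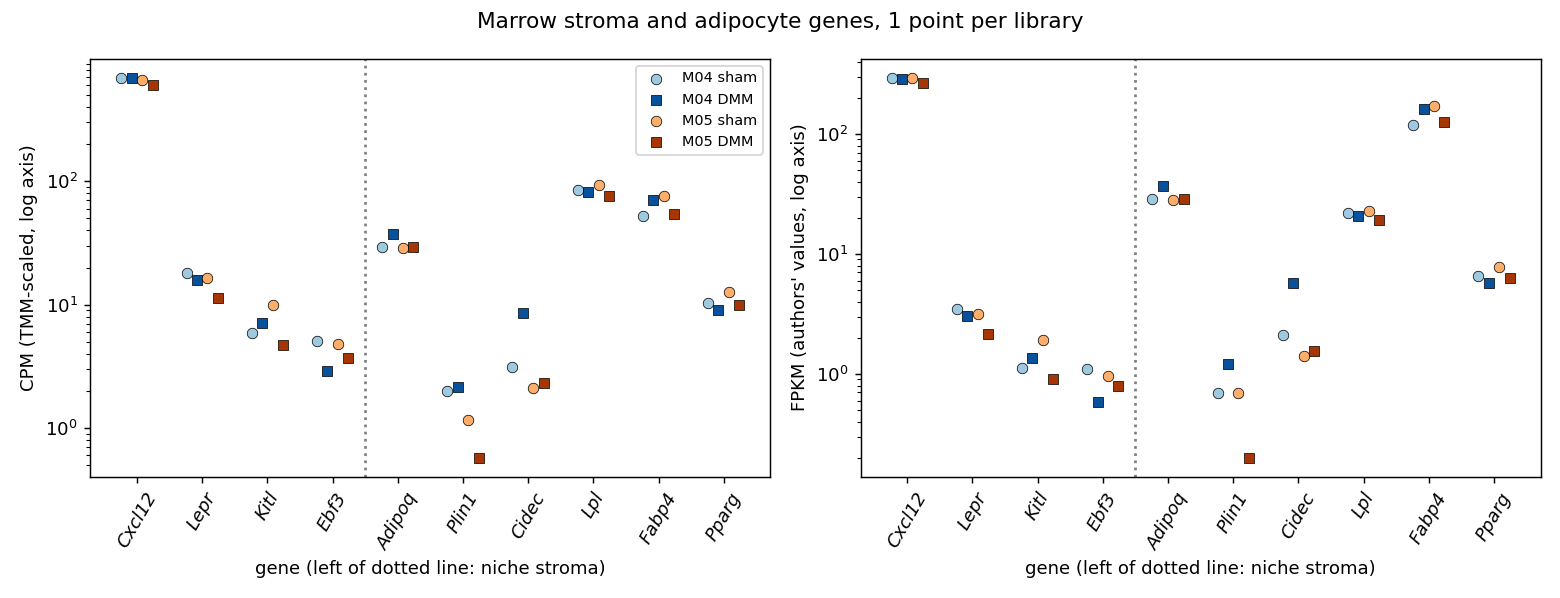
Level of each member in the 4 libraries, as TMM-scaled CPM (left) and as the authors' FPKM (right), both on log axes. Circles are sham and squares DMM knees, blue M04 and orange M05. Cxcl12 is the highest in every library (267 to 295 FPKM), and Cidec in the M04 DMM knee stands above its other 3 points.

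The first comparison asked whether these genes differ between DMM and sham knees. Of the 10, 0 passed an adjusted p of 0.05 with edgeR's quasi-likelihood test and the mouse as a block, where 0.649% of all genes tested did (85 of 13103). At an unadjusted p under 0.05 the count of members was also 0, against 681 of all genes, and DESeq2 and limma called 0 members. Adjusted p-values of the members were 0.974 to 0.9997. The median log2 fold change was -0.38 for niche stroma and -0.096 for adipocyte genes, beside -0.010 for all genes tested. For 7 of the 10 members the spread behind the standard error came wholly from the trend across genes, and for the other 3 almost wholly. The intervals given here therefore say little about how differently the mice responded.

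Among the niche stroma genes, Cxcl12 varied least. Its level was 694 CPM (sham) and 684 CPM (DMM) in M04 and 663 CPM (sham) and 598 CPM (DMM) in M05. The sham and DMM libraries overlapped, and the highest value was 1.16 times the lowest. The log2 fold change was -0.084 (SE 0.16, 95% interval -0.40 to 0.23). It was 0.030 when libraries were scaled by their totals alone, a scaling under which the median of all genes stood at 0.10.

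Lepr, the leptin receptor, was at 17.9 CPM (sham) and 15.8 CPM (DMM) in M04 and 16.6 CPM (sham) and 11.4 CPM (DMM) in M05. Both DMM values lay below both sham values, with a log2 fold change of -0.36 (SE 0.23, 95% interval -0.80 to 0.088). Its counts were not whole numbers in 3 of the 4 libraries, and how the fractions arose is not given. Ebf3 was low, with 69 and 43 counts in M04 and 82 and 45 counts in M05. On the CPM scale the DMM values (2.88 and 3.69) were again below the sham values (5.11 and 4.81), and the log2 fold change was -0.60 (SE 0.42, 95% interval -1.42 to 0.22). With so few counts the interval is wide on both sides of 0. Kitl was at 5.85 CPM (sham) and 7.15 CPM (DMM) in M04 and 10.03 CPM (sham) and 4.68 CPM (DMM) in M05. The M05 sham knee was highest and its DMM knee lowest, with both knees of M04 between them, and the log2 fold change was -0.40 (SE 0.33, 95% interval -1.05 to 0.25).

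Of the adipocyte genes, the regulator Pparg was at 10.4 CPM (sham) and 9.03 CPM (DMM) in M04 and 12.7 CPM (sham) and 9.94 CPM (DMM) in M05. Both DMM values lay below both sham values, and the log2 fold change was -0.28 (SE 0.27, 95% interval -0.80 to 0.24). Adipoq was at 29.3 CPM (sham) and 37.6 CPM (DMM) in M04 and 28.8 CPM (sham) and 29.3 CPM (DMM) in M05. The M04 DMM library was the highest and the other 3 were nearly equal. The log2 fold change was 0.19 (SE 0.18, 95% interval -0.16 to 0.55). The adiponectin transcript was thus at a steady level in 3 knees, on 357 to 491 counts per library.

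Of the genes of the lipid droplet, Cidec had 42 and 129 counts in M04 and 36 and 28 counts in M05, which gave 3.11 CPM (sham) and 8.63 CPM (DMM) in M04 and 2.11 CPM (sham) and 2.30 CPM (DMM) in M05. The M04 DMM library stood alone, and the other 3 lay close to each other. The fitted log2 fold change was 0.85 (SE 0.44, 95% interval -0.0073 to 1.71), with an unadjusted p of 0.0520 and an adjusted p of 0.974 by edgeR. Without the M04 DMM library it was -0.17. Plin1 had 27 and 32 counts in M04 and 20 and 7 counts in M05. Its log2 fold change was -0.38 (SE 0.71, 95% interval -1.78 to 1.01). CPM and FPKM gave different ratios for Plin1 within a mouse. Its log2 ratio of DMM to sham was 0.091 in CPM and 0.80 in FPKM in M04, and -0.88 and -1.80 in M05. In FPKM it was thus at 0.698 FPKM (sham) and 1.21 FPKM (DMM) in M04 and 0.697 FPKM (sham) and 0.200 FPKM (DMM) in M05, highest in the M04 DMM library as Cidec was. Whether the droplet genes differed from each other was not tested. Per 100 counts of Adipoq in the same library, a ratio that no scaling between libraries can alter, there were 10.6 counts of Cidec in the sham and 22.9 in the M04 DMM library, and 7.33 and 7.84 in those of M05. For Plin1 this ratio was 6.82, 5.68, 4.07 and 1.96 in the same order.

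Among the genes of fatty acid uptake and transport, Lpl was at 85.4 CPM (sham) and 82.3 CPM (DMM) in M04 and 92.8 CPM (sham) and 76.0 CPM (DMM) in M05. Both DMM values lay below both sham values, by little, and the log2 fold change was -0.17 (SE 0.16, 95% interval -0.47 to 0.13). Its counts were not whole in any library. Fabp4 was at 52.1 CPM (sham) and 70.3 CPM (DMM) in M04 and 75.4 CPM (sham) and 54.4 CPM (DMM) in M05. The DMM knee was higher in M04 and the sham knee in M05, so the groups overlapped, and the log2 fold change was -0.021 (SE 0.16, 95% interval -0.34 to 0.29), or 0.093 with libraries scaled by their totals alone. In all, DMM values lay below sham values without overlap in 4 of the 10 members (Lepr, Ebf3, Lpl, Pparg) and above them in 0. Such separation in either direction was found in 25.6% of all genes tested. An exact two-sided permutation test of 2 against 2 libraries, which ignores the pairing of the knees, can give no p under 0.333.

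**Figure D2:**
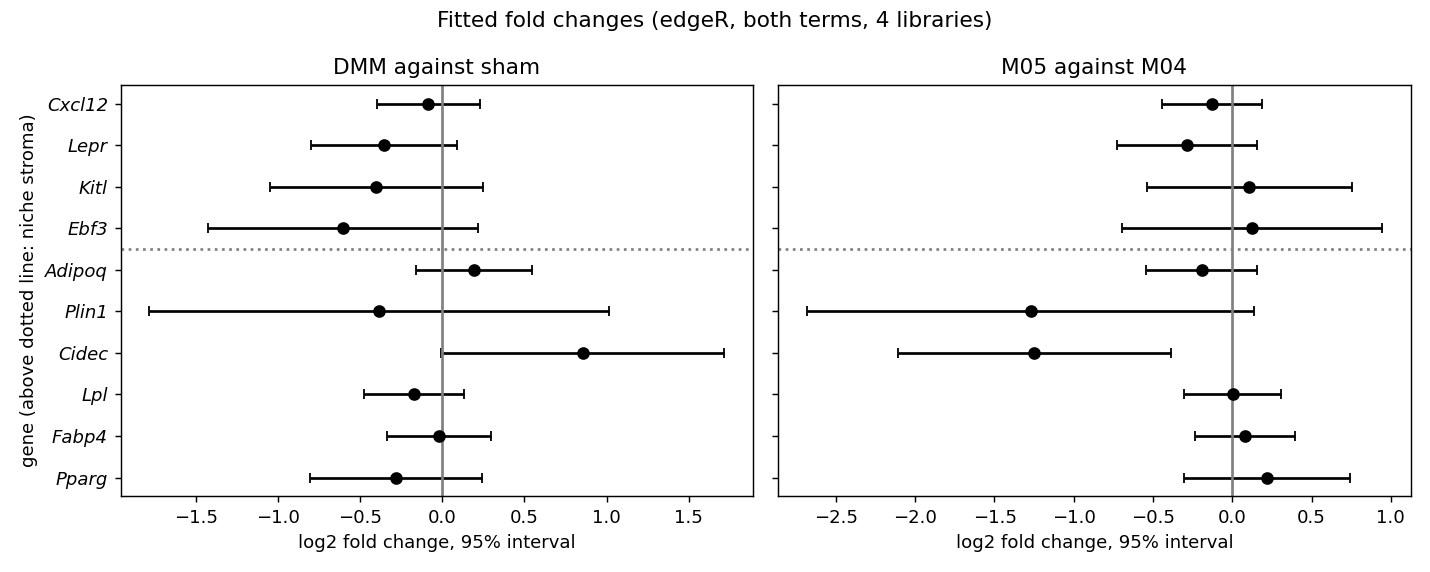
Fitted log2 fold changes of the 10 members (points) with 95% intervals (bars), for DMM against sham knees (left) and M05 against M04 (right). For the surgery every interval includes 0, that of Cidec by a narrow margin, and for the mouse the interval of Cidec does not (-2.11 to -0.39).

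The second question was whether the knees of both animals behaved alike. With mouse and surgery in the model, the difference between the responses is the 1 residual degree of freedom, so it could not be tested. Ratios within a mouse are given with 95% intervals that cover counting error only and compare 2 libraries, not conditions. The sign of the ratio was the same in both mice for 7 of the 10 members, against 47.1% of all genes tested. The median log2 ratio of the 6 adipocyte genes was 0.22 in M04 and -0.32 in M05, and that of the 4 niche genes -0.099 and -0.45. For all genes tested it was 0.0055 and -0.012.

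Fabp4 went in opposite directions, beyond counting error in each mouse. Its level in the DMM knee was 1.35 times (1.22 to 1.48) the sham level in M04 and 0.721 times (0.656 to 0.793) in M05. Kitl stood at 1.22 times (0.906 to 1.66) the sham level in M04 and 0.467 times (0.340 to 0.633) in M05, where 57 counts faced 171. Cidec stood at 2.77 times (1.94 to 4.03) in M04 and 1.09 times (0.640 to 1.84) in M05. A log2 ratio above 1 in M04 was found in 3.68% of all genes tested, and Cidec was the only member there. Adipoq stood at 1.28 times (1.13 to 1.46) in M04 and 1.02 times (0.886 to 1.17) in M05. Cxcl12, with 7288 to 11297 counts a library, stood at 0.985 times (0.958 to 1.01) in M04 and 0.903 times (0.877 to 0.930) in M05, and the second interval lies below 1. Lepr stood at 0.884 times (0.736 to 1.06) and 0.688 times (0.557 to 0.845), and Plin1, on 20 and 7 counts in M05, at 0.490 times (0.175 to 1.21) there.

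**Figure D3:**
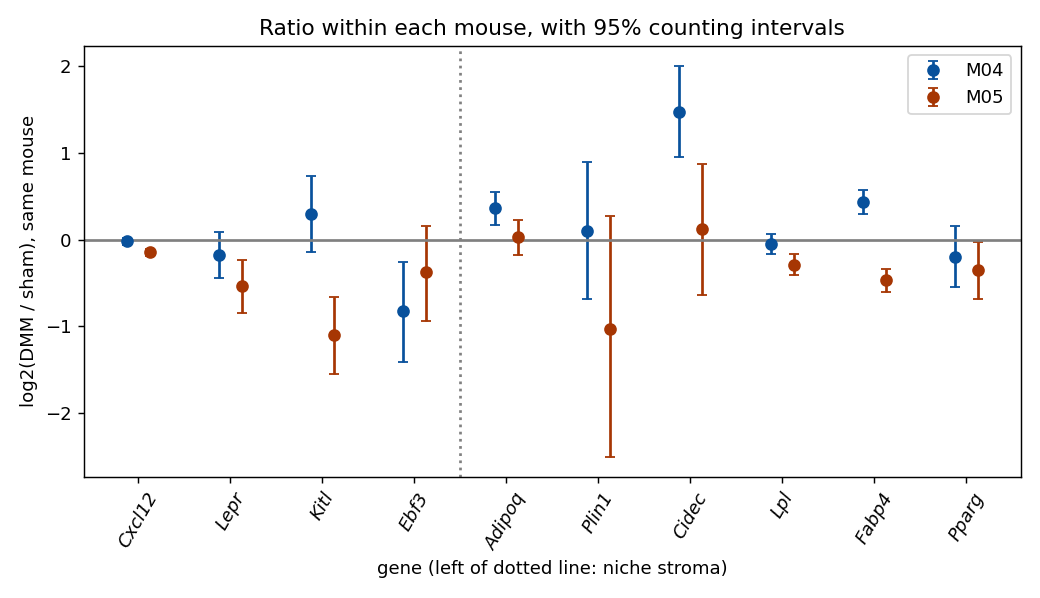
Log2 ratio of DMM to sham CPM within M04 (blue) and within M05 (orange) for each member, with 95% intervals for counting error only. Cidec in M04 lies highest, Fabp4 lies above 0 in M04 and below it in M05, and Kitl lies lowest in M05.

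The comparison of the mice, M05 against M04 with the surgery in the model, called 0 of the 10 members, where edgeR called 2.6% of all genes tested (341 of 13103, of which 126 were higher in M05). With libraries scaled by their totals alone, 912 genes were called, of which 21 were higher, and the median of all genes stood at -0.25. By DESeq2 and limma the count of members was also 0. DESeq2, however, gave no adjusted p to Lepr, Kitl, Ebf3, Adipoq, Plin1, Cidec and Pparg, so these could not be called there. The unadjusted p of Cidec by DESeq2 was 0.0535. At an unadjusted p under 0.05 by edgeR the count of members was 1, Cidec, against 1872 of the 13103 genes tested. Cidec had a log2 fold change of -1.25 (SE 0.44, 95% interval -2.11 to -0.39) with an adjusted p of 0.102, and passed only with libraries scaled by their totals alone (adjusted p = 0.0358). Plin1 stood at -1.27 (SE 0.72, 95% interval -2.68 to 0.14). On the CPM scale, both droplet genes were lower in both knees of M05 than in either knee of M04, as were 4 of the 10 members in all and 0 were higher, where the mice did not overlap in 45.3% of all genes tested. For Cidec the value without the M04 DMM library was -0.50. For Cxcl12 the log2 fold change was -0.13 (SE 0.16, 95% interval -0.44 to 0.19) and for Adipoq -0.19 (SE 0.18, 95% interval -0.54 to 0.16). Lpl stood at 0.0025 (SE 0.16, 95% interval -0.30 to 0.31).

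Other genes of the same cells and pathways were read from lists that were chosen by function. Of 20 further niche stroma genes, all tested, 1 was higher and 0 were lower in DMM knees past the threshold, and the median log2 fold change was -0.042. The one was Cspg4, a surface proteoglycan of pericytes (log2 fold change 0.83, SE 0.23, edgeR adjusted p = 0.0415). It was at 18.4 CPM (sham) and 23.7 CPM (DMM) in M04 and 6.33 CPM (sham) and 16.2 CPM (DMM) in M05. The M05 sham library was the lowest, as it was for the chondrocyte markers, and the part of those in the value of Cspg4 was not tested. Without the M05 sham library its log2 fold change was 0.12, and without the M04 sham library it was 1.66. Without the M04 and the M05 DMM library it was 0.40 and 0.95. It was 0.85 by DESeq2, 0.83 with RLE factors and 0.94 with library totals alone, none past the threshold. At a mean of at least 5 CPM and without robust moderation it passed, at 0.83 in both. Against M04, M05 was lower in 3 of the 20 by edgeR, namely Cspg4 at -1.02 (SE 0.23, adjusted p = 0.00118), the secreted binding protein Igfbp5 at -0.72 (SE 0.15, adjusted p = 0.000633) and the lipid carrier Apoe at -0.54 (SE 0.16, adjusted p = 0.0254). Of 8 partners of CXCL12, stem cell factor and leptin, 7 were tested and 0 passed in either comparison. The CXCL12 receptor Cxcr4 was at 103 CPM (sham) and 100.0 CPM (DMM) in M04 and 87.4 CPM (sham) and 74.1 CPM (DMM) in M05, and its log2 fold change between DMM and sham was -0.14 (SE 0.15). The signalling genes Jak2 and Stat3 stood at 0.017 and 0.15.

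Of 33 further adipocyte and lipid genes, 27 were tested and 0 passed for the surgery, with a median log2 fold change of 0.11. In M05 against M04, 3 were lower and 1 was higher by edgeR. Cfd, the serine protease adipsin, stood at -0.92 (SE 0.17, adjusted p = 2.94e-05), the fatty acid desaturase Scd1 at -0.72 (SE 0.16, adjusted p = 0.00102) and the fatty acid synthase Fasn at -0.62 (SE 0.18, adjusted p = 0.023). Dgat1, which completes triglyceride synthesis, stood at 0.61 (SE 0.17, adjusted p = 0.0175). Cfd was at 42.9 CPM (sham) and 83.9 CPM (DMM) in M04 and 32.5 CPM (sham) and 30.8 CPM (DMM) in M05, so the M04 DMM library stood apart for this gene as it did for Cidec. Scd1 was also highest there, at 109.7 CPM, against 66.9 CPM in the M04 sham library. In M05 it was at 49.1 CPM (sham) and 54.8 CPM (DMM). Fasn and Dgat1 were not highest in the M04 DMM library. Fasn was at 46.3 CPM (sham) and 37.8 CPM (DMM) in M04 and 27.7 CPM (sham) and 26.8 CPM (DMM) in M05. Dgat1, lowest in the M04 DMM library, was at 37.6, 36.8, 50.5 and 63.8 CPM in the same order. Without the M04 DMM library the log2 fold change between the mice was -0.44 for Cfd and -0.37 for Scd1. In that fit the M04 sham library alone stood for M04. Without the mouse as a block, or by limma, none of the list genes called here passed in either comparison. Ucp1, the marker of brown fat, had 0 counts in all 4 libraries, which allows up to 0.176 to 0.246 CPM, and leptin (Lep) had 1, 0, 1 and 0 counts. Both are named with their values known.

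Of 12 PPARG partners and adipocyte precursor genes, 10 were tested. None passed for the surgery, and 1 was lower in M05, the corepressor Ncor1 at -0.57 (SE 0.16, adjusted p = 0.0163). Of 9 genes that handle LPL or its lipoproteins, 6 were tested. None passed for the surgery, and the lipoprotein receptor Lrp1 was lower in M05 at -0.74 (SE 0.16, adjusted p = 0.000443). All 3 adiponectin receptors were tested and 0 passed in either comparison. Adipor1, the most abundant of them, was at 441 CPM (sham) and 391 CPM (DMM) in M04 and 500.4 CPM (sham) and 501 CPM (DMM) in M05.

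Markers of other cells that could give these transcripts were set beside the members. Skeletal muscle markers summed to 144 CPM (sham) and 386 CPM (DMM) in M04 and 509.6 CPM (sham) and 157 CPM (DMM) in M05, all 8 above 0 in every library. The M04 DMM library and the M05 sham library were the high ones, and the same 2 libraries were the high ones for Fabp4 and Kitl. Gpihbp1, the protein that carries LPL across capillary endothelium, was at 6.59 CPM (sham) and 8.83 CPM (DMM) in M04 and 8.74 CPM (sham) and 4.93 CPM (DMM) in M05, and Angptl4, a secreted inhibitor of LPL, at 9.26 CPM (sham) and 16.4 CPM (DMM) in M04 and 14.7 CPM (sham) and 11.9 CPM (DMM) in M05. Both were high in the same pair of libraries, in another order within it, and both are named with their values known. Among the other tested genes of that list, Vldlr was also high in this pair, while Lmf1, Lrp1 and Apoc2 were not. Lmf1 was lowest there, at 14.3 CPM in the M04 DMM library and 14.7 CPM in the M05 sham library. Lpl itself was lower in the DMM knee of each mouse. The part of muscle in Fabp4 and Kitl was not tested. Endothelial markers, 9 of 9 above 0 in every library, summed to 369.7 CPM (sham) and 326 CPM (DMM) in M04 and 274 CPM (sham) and 314 CPM (DMM) in M05. The sum was highest in the M04 sham library, with 172 CPM of it from Vwf, a gene picked with its value in view. Of the 9, Cdh5 at -0.99 (SE 0.22, adjusted p = 0.0011) and Kdr at -0.92 (SE 0.25, adjusted p = 0.0156) were lower in M05 by edgeR, and none passed for the surgery. Macrophage markers, also 9 of 9, summed to 1146 CPM (sham) and 1116 CPM (DMM) in M04 and 1111 CPM (sham) and 1047 CPM (DMM) in M05. Vcam1, which is also among the further niche stroma genes, gave 187 to 227 CPM of this sum. The part of endothelium or macrophages in the members' values was not tested. Fibroblast markers of synovium and tendon summed to 57.7 CPM (sham) and 77.1 CPM (DMM) in M04 and 58.1 CPM (sham) and 70.5 CPM (DMM) in M05, higher in the DMM knee of each mouse. Of the 5 tested, Dpt and Clec3b were higher in DMM knees and 0 were lower. Of the 8 osteoblast markers 2 were higher in DMM knees, Alpl and Ibsp. Of these 4, DESeq2 called Dpt alone. Alpl was also lower in M05, at -0.52 (SE 0.15, adjusted p = 0.0313) by edgeR. Of the 6 chondrocyte markers, 3 were higher in DMM knees by edgeR, Comp by a log2 fold change of 1.02, Col9a1 by 0.97 and Prg4 by 0.74. In M05 against M04, 4 were lower, Comp, Col9a1, Prg4 and Col2a1, with log2 fold changes from -1.34 (Col2a1) to -0.71 (Comp). With all 4 libraries, DESeq2, limma and the fit with RLE factors called none of these chondrocyte genes in either comparison. Without the M05 sham library, where this list was lowest, Prg4 stood at -0.11 for the surgery and Comp at 0.086 for the mouse. The part of cartilage in the other genes lower in M05 was not tested. No erythroid or neutrophil marker passed for the surgery. In M05 against M04 the neutrophil genes S100a8, at 0.95 (SE 0.22, adjusted p = 0.00242), and S100a9, at 0.88 (SE 0.23, adjusted p = 0.0111), were higher by edgeR, and no erythroid marker passed.

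**Figure D4:**
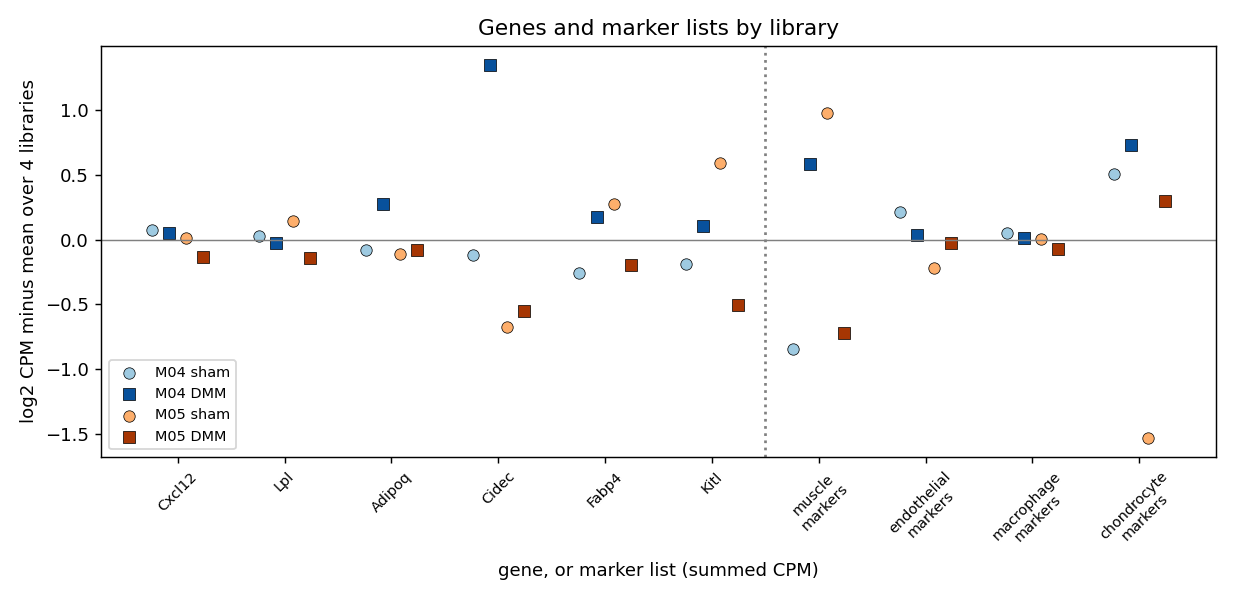
Log2 CPM of 6 members and of the summed CPM of 4 marker lists, each minus its mean over the 4 libraries, so that only the pattern is compared. Muscle markers, Fabp4 and Kitl are high in the M04 DMM library and the M05 sham library, Cidec is high in the M04 DMM library alone, and Cxcl12 and Lpl stay near 0 while chondrocyte markers fall lowest in the M05 sham library.

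The pattern of Cxcl12 over the 4 libraries was shared by many genes. Among 9208 named genes averaging 5 CPM or more, 370 (4.02%) lay within 0.1 of it, by the largest difference in centred log2 CPM over the 4 libraries. The nearest were Sytl4 (0.016), Ccdc85b (0.018), Acly (0.021), Spire1 (0.022) and Rab14 (0.026). Lepr stood at 0.274 and Kitl at 0.571 from Cxcl12. For Adipoq 108 genes (1.17%) lay within 0.1, the nearest being Ubr2 (0.021), Stag1 (0.033), Pwwp2a (0.034), Apod (0.04) and Tom1l2 (0.042). Cxcl12 stood at 0.222 from Adipoq, Lpl at 0.303 and Fabp4 at 0.385. With 4 libraries these distances only describe the libraries.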

How the data were processed

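Poly(A) RNA of 4 libraries was read single-end over 100 bases, per the labels' protocols. Estimated counts per gene, not normalised, were deposited by the authors, and 9.21% to 10.9% of the values in a library are not whole. Per the submitters' processing notes the build is GRCm39 (mm39). Aligner, counting method and strand: not given in the sources used here. Each library fills 2 columns that are equal in all 24421 rows and was counted once. FPKM values, deposited as scaled by the authors, served for levels between genes and for an alternative test. Titles and the treatment field gave the groups, against the free text of the sham samples.

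Counts were rounded, filtered by filterByExpr, scaled by TMM and fitted in edgeR 4.0.16 (R 4.3.3, robust quasi-likelihood, terms for mouse and surgery, Benjamini-Hochberg over 13103 genes). The mouse is a block because the descriptions pair the knees of 1 animal, and same-mouse deviations correlated at 0.126 across genes. SE is the absolute log2 fold change over the square root of F, and its 95% intervals are normal ones. Intervals of ratios within a mouse are exact binomial ones, and a count of 0 allows 3 counts. The fit was tested on simulated counts with the same dispersion for every gene and no difference between the mice. That test does not show how often calls are wrong in these libraries.

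Members and lists were chosen with earlier results of these data known. Named were all members and, per list, up to 6 genes past the threshold or else the 3 of highest mean CPM, with exceptions marked. The 14 lists hold 144 genes, 2 of them listed in the table by an older symbol. Alternatives were DESeq2 1.42.0, limma 3.58.1 on log2(FPKM + 1) and log2(FPKM + 0.1), other scalings and filters, and fits of 3 libraries.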

Additional observations from a re-analysis of the deposited data

How the results depend on the processing

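For DMM against sham no member was called in any of the 14 alternatives, where the smallest adjusted p of a member was 0.466, and 128 of 137 recomputed fold changes kept their sign. Genes called numbered 85, and 11 with DESeq2, 35 with RLE factors, 53 with library totals alone, 25 without haemoglobin rows, 1 with limma at either pseudocount, 0 with no replicate block (322 at an unadjusted p under 0.05) and 0 to 121 when 1 library was left out. For M05 against M04 they numbered 341, and 69 with DESeq2 (45 higher), 186 with RLE factors, 912 with library totals alone, 114 without haemoglobin rows, 0 with limma at either pseudocount, 0 with no replicate block (1819 unadjusted) and 0 to 331 when 1 library was left out. Library totals alone called 1 member, Cidec. The cause of these changes was not tested. The block changed the call of no member. With 3 libraries no mouse term could be fitted, and the mice then differ between the groups.

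The following signs of members changed, none past the threshold. With library totals alone the surgery value was 0.030 for Cxcl12 and 0.093 for Fabp4, and the mouse value -0.13 for Kitl, -0.12 for Ebf3, -0.24 for Lpl, -0.16 for Fabp4 and -0.022 for Pparg. The mouse value of Lpl, 0.0025 as reported, was -0.0061 at a mean of at least 5 CPM and -0.030 and -0.031 by limma at the larger and smaller pseudocount. With 1 library left out, the surgery value ranged from -0.18 to 0.0071 for Cxcl12, from -0.76 to 0.019 for Kitl, from -1.44 to 0.44 for Plin1, from -0.17 to 1.73 for Cidec (negative without the M04 DMM library) and from -0.27 to 0.26 for Fabp4. The mouse value ranged from -0.47 to 0.62 for Kitl, from -0.27 to 0.58 for Ebf3, from -0.14 to 0.15 for Lpl and from -0.17 to 0.31 for Fabp4. Counts were low for Plin1 (7 to 32 per library), and the effect of depth on its value was not tested.

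Of the list genes, 8 were called for the surgery and 18 for the mouse. DESeq2 called 1 and 5 of these (for the mouse Igfbp5, Apoe, Scd1, Cfd and Lrp1), RLE factors 3 and 11, and limma or the fit with no replicate block 0. For the mouse, DESeq2 gave no adjusted p to Cspg4, Fasn, Cdh5 and Kdr, so these could not pass there. Leaving out 1 library left 0 to 7 and 0 to 10. The sign turned for Prg4 (surgery, -0.11 to 1.63) and Comp (mouse, -1.55 to 0.086), both chondrocyte genes, without the M05 sham library.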
